A study of Mus musculus with 6 samples.

Results

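Heat shock proteins and their DNAJ co-chaperones were followed in hippocampal RNA of p300+/- mice, which are heterozygous for a deficiency of p300, and of wild-type littermates. Members were the probe sets whose annotation named a single gene and whose symbol matched the Hspa, Hspb, Hspd, Hspe, Hsph, Hsp90, Dnaja, Dnajb or Dnajc series, or was Cryab, Hsf1 or Hsf2. This gave 174 probe sets of 72 genes, among 34945 probe sets of 18193 genes with a single symbol. Hsf1 and Hsp90ab1 had no such probe set and were not analysed here. Each group held 3 Affymetrix Mouse Genome 430 2.0 arrays. The p300+/- arrays read 3 pools of hippocampal RNA from heterozygous females, 4 animals to a pool, and the wild-type arrays read 3 pools of 4 littermate females, all 3 months old and on a C57BL/6 background. Because RNA was pooled, the spread between arrays is that between pools and not between animals, and the labels do not describe how p300 was disrupted. All values below are log2 values of a probe set relative to its own median over the 6 arrays. They show differences between arrays and no absolute level.

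Chaperones bind unfolded or partly folded proteins and help them reach or keep their shape. HSP70 proteins do this in cycles of ATP hydrolysis, which DNAJ proteins start by handing over a client and stimulating the ATPase through their J domain, while HSP110 proteins release the nucleotide. HSP90 acts later on near-native clients such as kinases and steroid receptors, HSP60 with HSP10 forms a folding chamber in mitochondria, and small heat shock proteins hold clients without ATP. The heat shock factor HSF1 induces the cytosolic set under protein stress, and in neurons DNAJ proteins of vesicles serve synaptic release and clathrin uncoating. The protein p300 is encoded by Ep300. It acetylates histones and other proteins as a transcriptional coactivator, and HSF1 is among its known substrates.

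The targeted gene was read by a single probe set, 1434765_at. Ep300 stood at -0.26, -0.22 and -0.50 in p300+/- pools 1 to 3, against 0.22, 0.38 and 0.40 in wild-type pools 1 to 3, a log2 fold change of -0.66 ± 0.13 with no overlap of the groups. Here and below a log2 fold change is p300+/- minus wild-type from the fit to all 6 arrays and is followed by its standard error (SE), and values of a probe set are listed for pools 1, 2 and 3 of each genotype. It did not pass over all 45037 tested probe sets (limma, adjusted p = 0.9999), and the labels do not say whether its target lies in the disrupted part of the gene. Arrays differed in ways that genotype did not follow. Over all tested probe sets the values of p300+/- 3 and wild-type 2 correlated at r = 0.55 and those of p300+/- 1 and wild-type 1 at r = 0.45, while pools of 1 genotype correlated between -0.42 and 0.11. These correlations run across probe sets, which are not independent replicates, and centring on the probe set median pulls them below 0. The widest spreads were those of p300+/- 3 and wild-type 2, with SDs over probe sets of 0.29 and 0.33, against 0.18 to 0.21 in the other 4 arrays. Markers of hippocampal neurons were measured in 8 of 8 genes, none of their 12 probe sets in the dimmest class of signal, and their mean was -0.041, 0.029 and -0.34 in p300+/- and -0.042, -0.27 and 0.14 in wild-type pools. The mean of 12 choroid plexus markers, a tissue that a dissection can carry along, was 0.10, -0.048 and 0.33 in p300+/- and -0.13, -2.13 and 0.24 in wild-type pools, and that of 3 control probe sets for 18S ribosomal RNA was -0.19, -1.32 and 0.23 in p300+/- and 0.57, 0.41 and -1.11 in wild-type pools.

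No member passed the test between genotypes. Of the 174 probe sets 0 had an adjusted p under 0.05 (limma, Benjamini-Hochberg over all tested probe sets, where 0.0% were called), and all their adjusted p-values were 0.9999. At an unadjusted p under 0.05 there was 1 member, a probe set of Dnajb5 that was higher in p300+/- (0.575% of members, against 1.22% of all tested probe sets, or 0.77% counting higher ones only). Means were higher in p300+/- for 92 members and lower for 82, or 52.9% higher, where 51.7% of all tested probe sets were higher. The median log2 fold change of the members was 0.011 and that of all tested probe sets 0.0057, and the members ran from -0.47 (Dnajb14) to 0.48 (Dnajb5). The median SE of a member was 0.16 and its median 95% interval reached 0.37 to either side. For 167 of 174 members that interval lay wholly between a 2-fold decrease and a 2-fold increase, and for 127 between a 1.5-fold decrease and a 1.5-fold increase.

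**Figure D1:**
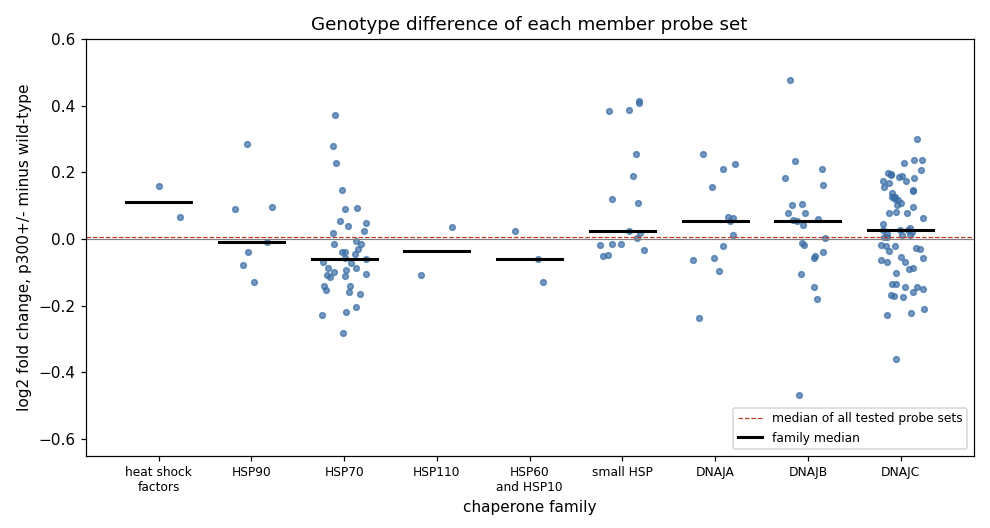
Log2 fold change (p300+/- minus wild-type, y axis) of each of the 174 member probe sets, by chaperone family (x axis, points spread sideways at random). Black bars are family medians and the dashed line is the median of all tested probe sets; family medians lie between -0.062 (HSP70) and 0.11 (heat shock factors, 2 probe sets).

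The heat shock factors were represented by Hsf2, a relative of HSF1 that shares its DNA element and is known for roles in development. Its probe set 1449306_at stood at 0.065, 0.035 and -0.013 in p300+/- pools 1 to 3, against -0.073, 0.013 and -0.32 in wild-type pools 1 to 3, a log2 fold change of 0.16 ± 0.13. The other, 1444436_at, stood at 0.0069, -0.13 and 0.18 in p300+/- and -0.0069, 0.35 and -0.47 in wild-type pools, or 0.064 ± 0.21. In both, wild-type 3 was the lowest array and the genotypes overlapped. The first probe set was in the dimmest of the 3 classes of signal that the values allow.

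The strongly stress-inducible cytosolic chaperones lay on both sides of 0. Over 8 such genes (Hspa1a, Hspa1b, Hsph1, Hsp90aa1, Hspb1, Cryab, Dnaja1 and Dnajb1), 8 of 21 probe sets had higher and 13 lower means in p300+/-, with a median log2 fold change of -0.039, and in 0 of them were the genotypes apart (5.39% of all tested probe sets). The direction turned with single pools and weights, to 15 higher and 6 lower without p300+/- 1 (median 0.039), 11 and 10 without wild-type 2 (median 0.026) and 12 and 9 with array weights (median 0.020). Hspa1a and Hspa1b encode the inducible HSP70 and are near-identical copies, so their probe sets may read both. Hspa1a (1452388_at) stood at -0.027, 0.28 and -0.19 in p300+/- pools 1 to 3, against -0.11, 0.027 and 0.19 in wild-type pools 1 to 3. Of the Hspa1b probe sets, 1427126_at stood at -0.24, 0.42 and -0.084 in p300+/- and 0.084, -0.090 and 0.41 in wild-type pools. These 2 probe sets were highest in p300+/- 2 and wild-type 3, an array of each genotype, and their log2 fold changes were -0.016 ± 0.16 and -0.10 ± 0.21. Hspa1b 1427127_x_at had the same order at its top, at -0.21, 0.37 and -0.040 in p300+/- and -0.087, 0.040 and 0.35 in wild-type pools (log2 fold change -0.062 ± 0.19). The third Hspa1b probe set, 1452318_a_at, stood at -0.67, 0.20 and -0.14 in p300+/- and -0.19, 0.14 and 0.28 in wild-type pools (log2 fold change -0.28 ± 0.23). Its lowest array was p300+/- 1, and without that array its log2 fold change was -0.049.

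The HSP90 family had 3 probe sets higher and 4 lower, against 5 higher and 2 lower without p300+/- 1. Hsp90aa1, the inducible cytosolic HSP90, was read by 5 probe sets with log2 fold changes of 0.090 ± 0.13, 0.095 ± 0.14, -0.0100 ± 0.14, -0.040 ± 0.13 and -0.078 ± 0.15 (1426645_at, 1433251_at, 1437497_a_at, 1438902_a_at and 1441827_x_at). Its values ran from -0.26 to 0.27 over all arrays, so both the sign and the size of its differences lay within the spread of the pools. In 1426645_at the 6 values were -0.092, 0.27 and 0.047 in p300+/- and -0.048, -0.030 and 0.030 in wild-type pools. In 1438902_a_at they were -0.21, 0.14 and -0.023 in p300+/- and -0.072, 0.023 and 0.081 in wild-type pools. In 1437497_a_at they were -0.052, 0.068 and -0.19 in p300+/- and 0.052, -0.26 and 0.065 in wild-type pools. None of these 3 separated the genotypes. The other 2, both in the dimmest class, stood at 0.026, 0.20 and -0.033 in p300+/- and -0.026, 0.18 and -0.24 in wild-type pools (1433251_at) and at -0.19, -0.036 and 0.047 in p300+/- and 0.036, 0.23 and -0.20 in wild-type pools (1441827_x_at). Hsph1, the HSP110 that acts as a nucleotide exchange factor for HSP70, stood at -0.20, 0.19 and -0.043 in p300+/- and 0.043, 0.072 and -0.27 in wild-type pools (1423566_a_at, log2 fold change 0.036 ± 0.15). Its second probe set, 1425993_a_at, stood at -0.18, 0.088 and -0.11 in p300+/- and -0.087, 0.087 and 0.13 in wild-type pools (log2 fold change -0.11 ± 0.13). p300+/- 1 was the lowest array in 1425993_a_at and the next lowest, after wild-type 3, in 1423566_a_at.

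Hspa8, which encodes the constitutive HSP70 called Hsc70 that also strips clathrin from vesicles, was read by 4 probe sets. In 1420622_a_at it stood at -0.70, 0.0027 and 0.22 in p300+/- pools 1 to 3, against -0.17, -0.0027 and 0.12 in wild-type pools 1 to 3, or -0.14 ± 0.23. p300+/- 1 was far below the other 5 arrays, and without it the value was 0.13. 1455789_x_at gave -0.071 ± 0.13 from -0.22, 0.058 and -0.058 in p300+/- and -0.16, 0.060 and 0.093 in wild-type pools. 1420623_x_at gave -0.015 ± 0.13 from -0.26, 0.025 and 0.025 in p300+/- and -0.16, 0.021 and -0.021 in wild-type pools. In these too p300+/- 1 and wild-type 1 were the lowest arrays of their genotypes. The fourth, 1431182_at, ran in another order, at 0.029, -0.49 and 0.74 in p300+/- and -0.029, 0.85 and -0.65 in wild-type pools (log2 fold change 0.039 ± 0.42), with p300+/- 3 and wild-type 2 at the top.

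Across the whole HSP70 family 28 of 39 probe sets had lower means in p300+/-, with a median log2 fold change of -0.062, but 15 of 39 were lower without p300+/- 1 and 18 of 39 when arrays were weighted by their quality. p300+/- 1 was the lowest of the 6 arrays in 17 of the 39 (43.6%, against 15.2% of all tested probe sets). The 3 HSP70 probe sets with the smallest p were those of Hspa13, Hspa9 and Hspa2. Hspa13, an HSP70 of microsomes, stood at 0.079, 0.65 and 0.017 in p300+/- pools 1 to 3, against -0.042, -0.017 and -0.31 in wild-type pools 1 to 3 in 1429502_at, a log2 fold change of 0.37 ± 0.19, and all p300+/- pools lay above all wild-type pools. Its other 3 probe sets gave 0.15, -0.11 and 0.052. Hspa9, the mitochondrial HSP70 known as mortalin, stood at 0.19, 0.45 and -0.041 in p300+/- and -0.020, -0.24 and 0.020 in wild-type pools in 1431274_a_at (log2 fold change 0.28 ± 0.16), whereas its other 4 probe sets lay between -0.17 and 0.090. Hspa2, a testis-enriched HSP70 that is also made in brain, had a single probe set at 0.00085, -0.20 and -0.30 in p300+/- and 0.13, 0.028 and -0.00085 in wild-type pools (log2 fold change -0.22 ± 0.12). It was lowest in p300+/- 2 and 3, while p300+/- 1 overlapped the wild-type pools. Oligodendrocyte markers, measured in 8 of 9 genes, averaged -0.0012, -0.029 and 0.11 in p300+/- and -0.043, -0.14 and -0.064 in wild-type pools. Their part in the values of Hspa2 and Cryab was not tested, and in pooled tissue RNA fewer cells of a type cannot be told apart from less RNA per cell.

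No chaperone of the endoplasmic reticulum (ER) passed the test between genotypes, and some of them shared a low pool in each genotype. The ER set held 10 genes and 29 probe sets (Hspa5, Hspa13, Hsp90b1, Dnajb9, Dnajb11, Dnajb12, Dnajb14, Dnajc1, Dnajc3 and Dnajc10), of which 13 were higher and 16 lower, with a median of -0.020. That median was 0.027 after quantile normalization of the arrays, 0.095 without p300+/- 1 and -0.092 without wild-type 1. The lowest array was p300+/- 1 in 10 of the 29 (34.5%) and wild-type 1 in 6 (20.7%), against 15.2% and 14.8% of all tested probe sets. Hspa5 encodes BiP, the HSP70 of the ER, Hsp90b1 the ER HSP90 known as GRP94, and Dnajc3 the co-chaperone P58IPK. These 3 were the only members among the 58 with a promoter sequence in the RefSeq table whose window, from 250 bases before to 50 after a gene start, held the ER stress response element, CCAAT followed after 9 bases of any kind by CCACG, on either strand. The element was searched after the array values were seen. It was held by 3 of 75 member windows (4%) and by 0.119% of all 32851 windows of that length. The stretches before the start are shown for these genes as examples of the element, and its part in their array values was not tested. They are given 5′ to 3′ on the gene's strand from GRCm38.p6, with the element in capitals: Hspa5 chr2:34771965-34772089 (plus strand), Hsp90b1 chr10:86705445-86705694 (minus strand) and Dnajc3 chr14:118937767-118937931 (plus strand).
Hspa5: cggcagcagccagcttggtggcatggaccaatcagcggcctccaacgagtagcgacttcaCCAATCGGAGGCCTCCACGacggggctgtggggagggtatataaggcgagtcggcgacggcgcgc
Hsp90b1: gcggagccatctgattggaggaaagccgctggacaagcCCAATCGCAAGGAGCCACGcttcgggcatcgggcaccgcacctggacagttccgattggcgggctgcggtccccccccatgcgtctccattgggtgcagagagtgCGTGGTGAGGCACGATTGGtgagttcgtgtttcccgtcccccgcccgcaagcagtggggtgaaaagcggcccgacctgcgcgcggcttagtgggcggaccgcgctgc
Dnajc3: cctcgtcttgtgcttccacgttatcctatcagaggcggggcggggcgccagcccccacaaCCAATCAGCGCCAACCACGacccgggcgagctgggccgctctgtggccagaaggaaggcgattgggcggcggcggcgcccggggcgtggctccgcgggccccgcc

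Hspa5 1427464_s_at stood at -0.99, 0.021 and 0.18 in p300+/- pools 1 to 3, against -0.66, 0.073 and -0.021 in wild-type pools 1 to 3. Hspa5 1416064_a_at stood at -0.62, 0.026 and -0.026 in p300+/- and -0.65, 0.086 and 0.059 in wild-type pools. In both, replicate 1 of each genotype was well below the other 4 arrays, and the log2 fold changes between genotypes were -0.059 ± 0.33 and -0.041 ± 0.25. The third Hspa5 probe set, 1447824_x_at, which was in the middle class of signal, had no low wild-type 1 pool, at -0.15, 0.31 and -0.070 in p300+/- and 0.053, 0.30 and -0.053 in wild-type pools (log2 fold change -0.068 ± 0.16). Hsp90b1 1415889_a_at stood at -0.58, -0.00036 and 0.18 in p300+/- and -0.24, 0.22 and 0.00036 in wild-type pools. Dnajc3 1419162_s_at stood at -0.36, 0.21 and 0.010 in p300+/- and -0.33, 0.12 and -0.010 in wild-type pools. Both again had their lowest arrays in p300+/- 1 and wild-type 1, and their log2 fold changes were -0.13 ± 0.22 and 0.027 ± 0.19. The second Hsp90b1 probe set, 1438040_a_at, stood at -0.17, 0.51 and 0.12 in p300+/- and -0.12, -0.52 and 0.23 in wild-type pools (log2 fold change 0.29 ± 0.24). Its low array was wild-type 2, and without it the value was 0.094.

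Dnajb9, the ER co-chaperone ERdj4 that restrains the sensor IRE1, lacked the element in its window and had the same low arrays, at -0.52, 0.057 and -0.039 in p300+/- pools 1 to 3, against -0.28, 0.039 and 0.065 in wild-type pools 1 to 3 (log2 fold change -0.11 ± 0.18). Dnajb11, the ER co-chaperone ERdj3, stood at -0.027, 0.0092 and 0.44 in p300+/- and -0.085, 0.29 and -0.0092 in wild-type pools (log2 fold change 0.078 ± 0.17), with p300+/- 3 and wild-type 2 at the top. The other 4 Dnajc3 probe sets all had p300+/- 1 as their lowest p300+/- pool, between -0.38 and -0.14, whereas wild-type 1 lay between -0.22 and -0.0035. Dnajb14 and Dnajb12, J proteins of the ER membrane, had differences of opposite sign. Dnajb14 1430561_at had the lowest log2 fold change of all members, -0.47 ± 0.22, from 0.078, -0.49 and -0.25 in p300+/- and 0.65, -0.078 and 0.17 in wild-type pools, and p300+/- 1 overlapped the wild-type pools. Dnajb14 1429468_at stood at -0.20, -0.0045 and -0.042 in p300+/- and 0.035, 0.26 and 0.0045 in wild-type pools, with no overlap and a log2 fold change of -0.18 ± 0.12. The 2 Dnajb12 probe sets gave 0.10 ± 0.13 and 0.16 ± 0.12.

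**Figure D2:**
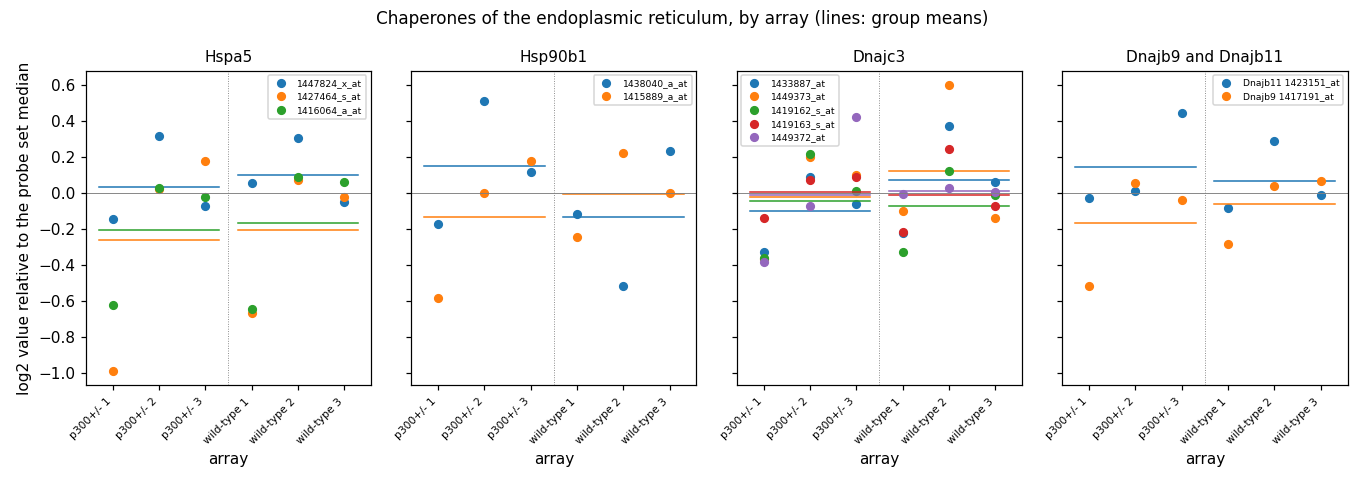
Log2 value relative to the probe set median (y axis) of each probe set of Hspa5, Hsp90b1, Dnajc3, Dnajb9 and Dnajb11 in each array (x axis, p300+/- left and wild-type right of the dotted line), with group means as lines. Hspa5 reaches -0.99 in p300+/- 1 and -0.66 in wild-type 1, so that both genotypes hold a low pool.

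Mitochondrial chaperones had 12 of 19 probe sets with higher means in p300+/- and a median log2 fold change of 0.027 over 8 genes. This turned to 9 of 19 without p300+/- 3 (median -0.016) and to 9 of 19 without wild-type 3 (median -0.0040). The folding chamber itself lay near 0. Hspd1, which encodes HSP60, stood at -0.13, 0.081 and -0.012 in p300+/- pools 1 to 3, against -0.048, 0.012 and 0.15 in wild-type pools 1 to 3 (log2 fold change -0.060 ± 0.12). Its partner Hspe1, HSP10, stood at 0.0077, -0.0077 and 0.25 in p300+/- and -0.055, 0.29 and -0.056 in wild-type pools in 1422579_at (log2 fold change 0.024 ± 0.14) and at -0.36, -0.018 and 0.18 in p300+/- and -0.14, 0.30 and 0.018 in wild-type pools in 1450668_s_at (log2 fold change -0.13 ± 0.18). Both Hspe1 probe sets were highest in p300+/- 3 and wild-type 2, whereas Hspd1 was not. Hspd1 and Hspe1 are neighbours read in opposite directions from 1 shared stretch, and it holds the heat shock element in its 3-unit form, in which the 2-unit forms GAANNTTC and TTCNNGAA overlap by a shared TTC, or by a shared GAA on the other strand. That form was searched on both strands, so every match also counts for both 2-unit forms. It stood in 6 of 75 member windows (8%), against 0.603% of all windows. Those 6 belonged to 4 of 58 member genes, which were Hspd1, Hspe1, Hsph1 and Dnajb6. The stretch shared by Hspd1 and Hspe1 is counted for each of them, here and for the 2-unit forms. Of the 2-unit forms, GAANNTTC was in 21.3% of the 75 member windows and 7.86% of all windows, and TTCNNGAA in 10.7% and 8.52%. The shared stretch is shown from both genes, with that of Dnajb6, as examples of the 3-unit form. The part of that form in the array values was not tested. The coordinates in GRCm38.p6 are chr1:55088039-55088096 (plus strand for Hspe1, minus strand for Hspd1) and chr5:29735832-29735884 (plus strand), with overlapping matches joined in capitals.
Hspe1: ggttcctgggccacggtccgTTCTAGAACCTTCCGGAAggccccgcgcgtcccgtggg
Hspd1: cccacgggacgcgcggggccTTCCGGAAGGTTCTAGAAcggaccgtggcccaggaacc
Dnajb6: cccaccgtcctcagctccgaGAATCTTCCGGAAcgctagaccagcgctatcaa

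A pair of mitochondrial J proteins accounted for all 3 mitochondrial probe sets without overlap of the genotypes, and all 3 were higher in p300+/- (15.8% of the 19, against 5.39% of all tested probe sets, or 3.19% counting higher ones only). Dnaja3, the J protein that works with mortalin, stood at 0.029, 0.24 and 0.11 in p300+/- pools 1 to 3, against -0.050, -0.21 and -0.029 in wild-type pools 1 to 3 in 1420629_a_at, a log2 fold change of 0.22 ± 0.12. Its other probe sets gave 0.053 and 0.011. Dnajc11, a protein of the mitochondrial membrane complex that shapes the cristae, was at 0.10, 0.13 and 0.060 in p300+/- and -0.092, -0.073 and -0.060 in wild-type pools in 1439763_at (log2 fold change 0.17 ± 0.10). A second Dnajc11 probe set, 1433880_at, was at 0.016, 0.015 and 0.10 in p300+/- and -0.015, -0.13 and -0.027 in wild-type pools (log2 fold change 0.10 ± 0.11). All 4 of its probe sets had higher means in p300+/-, the other 2 at 0.12 and 0.027. None of these values passed the test.

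The small heat shock proteins included several of the larger positive differences, which shrank without single pools. Of 17 probe sets 11 were higher and 6 lower, with a median log2 fold change of 0.022. Single pools moved this split, to 7 higher and 10 lower without p300+/- 3 (median -0.0093), 16 and 1 without p300+/- 2 (0.11), 8 and 9 without wild-type 1 (-0.010) and 15 and 2 without wild-type 2 (0.16). Hspb1, which encodes HSP27, stood at -0.12, 0.12 and 0.18 in p300+/- pools 1 to 3, against -0.42, -0.78 and 0.14 in wild-type pools 1 to 3 in 1422943_a_at. In 1425964_x_at it stood at -0.055, 0.24 and 0.15 in p300+/- and -0.36, -0.58 and 0.055 in wild-type pools. Wild-type 2 was the lowest and wild-type 1 the next lowest in both, while wild-type 3 overlapped the p300+/- pools. Group values were 0.060 ± 0.16 in p300+/- and -0.35 ± 0.47 in wild-type pools (SD, n = 3 each) for the first and 0.11 ± 0.15 in p300+/- and -0.30 ± 0.32 in wild-type pools (SD, n = 3 each) for the second. The log2 fold changes of 0.41 ± 0.23 and 0.41 ± 0.18 became 0.20 and 0.26 without wild-type 2. Hspb6, known as HSP20, stood at 0.12, -0.077 and 0.29 in p300+/- and -0.17, -0.73 and 0.077 in wild-type pools (log2 fold change 0.39 ± 0.22) and at 0.16 without wild-type 2. The choroid plexus markers given above were low in the same array, and endothelial markers, measured in 4 of 5 genes, averaged 0.066, 0.28 and -0.12 in p300+/- and -0.013, -0.26 and 0.21 in wild-type pools. The part of either tissue in Hspb1 and Hspb6 was not tested.

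Hspb8, known as HSP22, a partner of BAG3 in selective autophagy, stood at 0.21, -0.079 and 0.59 in p300+/- pools 1 to 3, against -0.25, 0.079 and -0.25 in wild-type pools 1 to 3 in 1417014_at (log2 fold change 0.38 ± 0.19). Its highest array was p300+/- 3, without which the value was 0.21, and its other 2 probe sets gave 0.022 ± 0.14 and 0.0030 ± 0.18. Cryab encodes alphaB-crystallin, which glia make in quantity. Cryab 1416455_a_at stood at 0.18, -0.046 and 0.49 in p300+/- and -0.10, 0.046 and -0.076 in wild-type pools (log2 fold change 0.25 ± 0.16), with p300+/- 3 at the top. Cryab 1434369_a_at stood at -0.13, -0.087 and 0.30 in p300+/- and -0.26, 0.41 and 0.087 in wild-type pools (log2 fold change -0.050 ± 0.20), where wild-type 2 was higher still, and 1435837_at stood at -0.13, -0.017 and 0.028 in p300+/- and -0.092, 0.11 and 0.017 in wild-type pools (log2 fold change -0.049 ± 0.11). The 2 brighter Cryab probe sets therefore had opposite signs. Markers of ependyma and motile cilia, measured in 8 of 8 genes, were also highest in p300+/- 3, at 0.016, -0.033 and 0.54 in p300+/- and -0.085, 0.021 and -0.15 in wild-type pools. So were those of blood, measured in 2 of 4 genes, at -0.014, -0.054 and 0.38 in p300+/- and -0.15, 0.16 and -0.15 in wild-type pools. Their part in the values of Hspb8 and Cryab was not tested. Hspb2, the neighbour of Cryab, gave 0.12 ± 0.16, Hspb3 -0.018 ± 0.25, the 3 probe sets of Hspb7 0.19, 0.11 and -0.016, the 2 of Hspb11 0.018 and -0.017, and Hspb9 -0.034 ± 0.14. Hspb3 spanned more than most, at -0.043, 0.027 and 0.55 in p300+/- and -0.027, 0.70 and -0.086 in wild-type pools, with p300+/- 3 and wild-type 2 high.

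Dnajb5, a DNAJB co-chaperone also known as HSC40 that is known to bind the histone deacetylase HDAC4 in heart muscle, was the member with the smallest p, and its probe sets disagreed. 1421961_a_at stood at 0.25, 0.16 and 0.39 in p300+/- pools 1 to 3, against -0.16, -0.29 and -0.18 in wild-type pools 1 to 3. All p300+/- pools lay above 0 and all wild-type pools below it, with group values of 0.27 ± 0.12 in p300+/- and -0.21 ± 0.075 in wild-type pools (SD, n = 3 each). The log2 fold change was 0.48 ± 0.12 with a 95% interval of 0.20 to 0.75, and it did not pass (limma, adjusted p = 0.9999, unadjusted p = 0.00412). It stayed between 0.42 and 0.53 when any 1 array was left out. 1450436_s_at, in the same class of signal, stood at -0.21, -0.019 and -0.11 in p300+/- and 0.019, 0.051 and 0.027 in wild-type pools. Here the genotypes did not overlap either, but p300+/- was lower, at -0.14 ± 0.11. The third probe set, 1421962_at, stood at 0.13, -0.30 and 0.15 in p300+/- and 0.080, -0.080 and -0.33 in wild-type pools (log2 fold change 0.10 ± 0.17) with overlap.

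**Figure D3:**
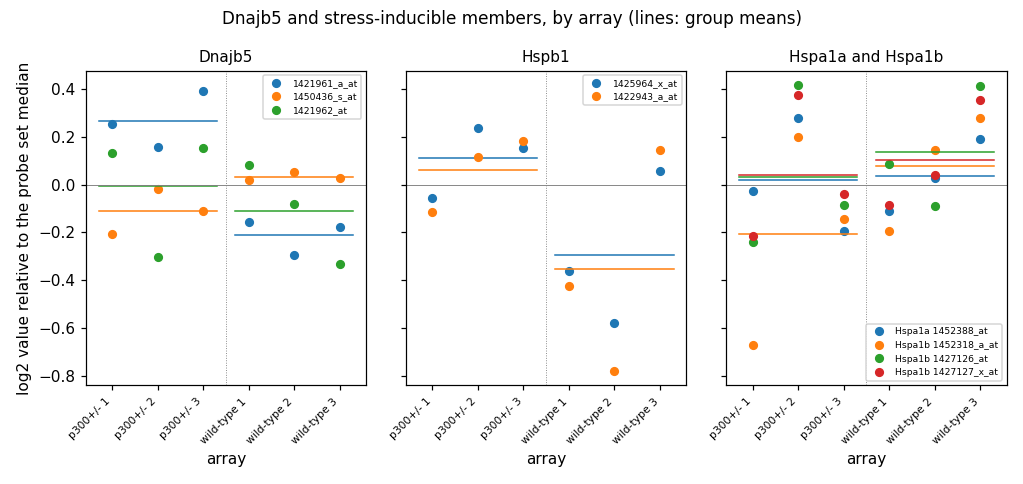
Log2 value relative to the probe set median (y axis) of each probe set of Dnajb5, Hspb1, Hspa1a and Hspa1b in each array (x axis, p300+/- left and wild-type right of the dotted line), with group means as lines. In Dnajb5 the p300+/- points of 1421961_a_at (0.25, 0.16 and 0.39) lie above all its wild-type points and those of 1450436_s_at (-0.21, -0.019 and -0.11) below theirs, and in Hspb1 wild-type 2 is the lowest point.

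The other DNAJB and DNAJA members, the J proteins built most like bacterial DnaJ, did not pass the test. Of 23 DNAJB probe sets 14 were higher, with a median of 0.055, and of 13 DNAJA probe sets 8 were higher, with a median of 0.053. In the DNAJB family 11 were higher without p300+/- 3 (median -0.00099) and 10 without wild-type 3 (-0.0054), and in the DNAJA family 6 without wild-type 1 (-0.0084). Dnajb1, the HSP40 that is induced with HSP70, stood at -0.14, 0.14 and 0.47 in p300+/- pools 1 to 3, against -0.20, -0.18 and 0.14 in wild-type pools 1 to 3 in 1416756_at (log2 fold change 0.23 ± 0.18). Its other probe set, 1416755_at, stood at 0.033, -0.015 and -0.063 in p300+/- and -0.040, 0.015 and 0.10 in wild-type pools (log2 fold change -0.039 ± 0.11). The first was highest in p300+/- 3, and without p300+/- 3 its value was 0.078. Dnajb6, a suppressor of aggregation of polyglutamine proteins, had the widest range of the DNAJB family in 1429776_a_at, at -0.59, 0.072 and 0.48 in p300+/- and -0.072, 0.52 and -0.72 in wild-type pools (log2 fold change 0.079 ± 0.36). Both genotypes held a low and a high pool there. Its other 3 probe sets gave 0.0035, 0.059 and -0.052. Dnajb8, a testis J protein in the mouse whose probe set was in the middle class of signal, stood at 0.0050, 0.091 and 0.33 in p300+/- and -0.0055, -0.19 and -0.0050 in wild-type pools with no overlap (log2 fold change 0.21 ± 0.13).

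Dnaja1, the main DNAJA partner of HSP70 in the cytosol, was read by 3 probe sets with values of both signs. 1459835_s_at stood at -0.78, 0.13 and -0.029 in p300+/- pools 1 to 3, against -0.16, 0.16 and 0.029 in wild-type pools 1 to 3 (log2 fold change -0.24 ± 0.24), and p300+/- 1 set the sign, since the value without it was 0.039. 1460179_at stood at -0.22, 0.060 and 0.025 in p300+/- and -0.20, 0.26 and -0.025 in wild-type pools (log2 fold change -0.057 ± 0.15). 1416288_at stood at -0.16, 0.10 and 0.26 in p300+/- and -0.20, 0.31 and -0.10 in wild-type pools (log2 fold change 0.062 ± 0.18). In both, p300+/- 1 and wild-type 1 were the lowest arrays, and wild-type 2 the highest. Dnaja4, a J protein of the same class, had higher means in p300+/- in all 3 probe sets. Dnaja4 1418592_at stood at 0.040, 0.54 and -0.15 in p300+/- and -0.040, -0.35 and 0.052 in wild-type pools (log2 fold change 0.26 ± 0.20). Dnaja4 1418591_at stood at 0.057, 0.37 and -0.043 in p300+/- and -0.16, -0.13 and 0.043 in wild-type pools (log2 fold change 0.21 ± 0.14). p300+/- 2 was the highest array in both and in 1434196_at (log2 fold change 0.064 ± 0.14), and without it the value of 1418592_at was 0.059. Dnaja2, another cytosolic J protein, had 4 probe sets between -0.10 and 0.16.

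The DNAJC family holds J proteins of many tasks, and its vesicle members spread widely between arrays. Over Dnajc5, Dnajc6 and Dnajc13, 5 of 11 probe sets were higher and 6 lower, with a median log2 fold change of -0.029 and a median range over the 6 arrays of 0.89, against 0.51 for all members and 0.48 for all tested probe sets. The split was 8 higher and 3 lower without p300+/- 3 (median 0.084), 1 and 10 without p300+/- 2 (-0.092), 7 and 4 without wild-type 1 (0.023) and 6 and 5 without wild-type 3 (0.031). Dnajc5 encodes cysteine string protein alpha, which with Hsc70 keeps the SNARE protein SNAP25 folded at the presynapse. Dnajc5 1460498_a_at had the widest range of all members, at -0.015, 0.86 and -0.63 in p300+/- pools 1 to 3, against 0.015, -1.31 and 0.60 in wild-type pools 1 to 3 (log2 fold change 0.30 ± 0.53). Dnajc5 1448851_a_at stood at -0.043, 0.21 and -1.04 in p300+/- and 0.043, -1.52 and 0.090 in wild-type pools (log2 fold change 0.17 ± 0.49). In both, p300+/- 3 and wild-type 2 lay far below the other arrays of their genotypes. 1448850_a_at had the same 2 low arrays, at 0.064, -0.064 and -0.66 in p300+/- and 0.23, -0.73 and 0.25 in wild-type pools (log2 fold change -0.13 ± 0.31). The remaining 2 probe sets, 1436179_a_at and 1436180_at, stayed between -0.19 and 0.28 and gave 0.010 ± 0.14 and 0.064 ± 0.15.

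Probe sets of 1 gene thus differed in how far they followed those 2 arrays. Dnajc6, auxilin, the neuronal J protein that recruits Hsc70 to clathrin coats, had the same low arrays in 1438896_at, together with p300+/- 2, at 0.52, -0.37 and -0.65 in p300+/- pools 1 to 3, against 0.66, -0.46 and 0.37 in wild-type pools 1 to 3 (log2 fold change -0.36 ± 0.37). In 1431216_s_at it stood at 0.095, 0.51 and -0.20 in p300+/- and 0.26, -0.38 and -0.095 in wild-type pools (log2 fold change 0.21 ± 0.23), and its other 2 probe sets gave -0.068 and -0.056. Dnajc13, the endosomal J protein RME-8, stood at 0.29, -0.21 and -0.59 in p300+/- and 0.35, -0.63 and 0.21 in wild-type pools in 1445337_at (log2 fold change -0.14 ± 0.31) but between -0.10 and 0.060 in 1434038_at (log2 fold change -0.029 ± 0.11). Dnajc27, a J protein with a Rab-like GTPase domain, was again lowest in p300+/- 3 and wild-type 2, at -0.052, 0.26 and -0.80 in p300+/- and 0.088, -1.29 and 0.052 in wild-type pools in 1434946_at (log2 fold change 0.19 ± 0.42). Its other probe set, 1435117_a_at, stood at 0.0015, -0.0015 and -0.34 in p300+/- and 0.0066, -0.41 and 0.044 in wild-type pools. Hspa12a, a distant HSP70 relative of neurons, was at -0.048, 0.96 and -0.74 in p300+/- and 0.048, -1.20 and 0.63 in wild-type pools in 1447222_at (log2 fold change 0.23 ± 0.55), the widest range of the HSP70 family. The sign of its difference turned without p300+/- 2 (-0.22) and without wild-type 2 (-0.28), and that of Dnajc5 1460498_a_at likewise (-0.092 and -0.24). The hippocampal neuron markers were also lowest in p300+/- 3 and wild-type 2, and their part in these values was not tested.

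**Figure D4:**
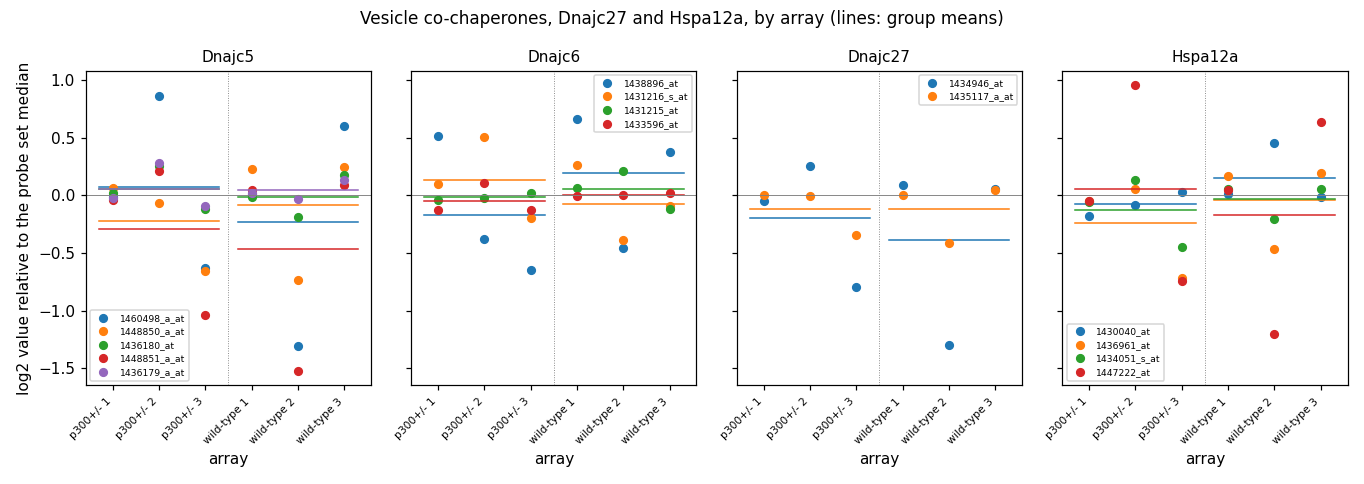
Log2 value relative to the probe set median (y axis) of each probe set of Dnajc5, Dnajc6, Dnajc27 and Hspa12a in each array (x axis, p300+/- left and wild-type right of the dotted line), with group means as lines. The lowest points lie in p300+/- 3 and wild-type 2, down to -1.04 and -1.52 for Dnajc5, while some probe sets of the same genes stay near 0.

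Among the remaining DNAJC members no difference passed. The family had 41 of 68 probe sets higher, with a median log2 fold change of 0.026 and a range from -0.36 (Dnajc6) to 0.30 (Dnajc5). Dnajc18 had the smallest p of the family, at 0.17, 0.12 and 0.091 in p300+/- pools 1 to 3, against -0.12, -0.092 and -0.091 in wild-type pools 1 to 3 in 1425076_at (log2 fold change 0.23 ± 0.10). The genotypes did not overlap, the value stayed between 0.21 and 0.25 with any 1 array left out, and its other probe sets gave 0.15 and -0.15. Dnajc2, a J protein of the ribosome known as MPP11, stood at -0.021, 0.033 and 0.48 in p300+/- and -0.017, 0.017 and -0.22 in wild-type pools in 1425910_at (log2 fold change 0.24 ± 0.16), a dim probe set, and its other 3 lay between -0.087 and -0.029. Dnajc22 1460468_s_at (0.11), Dnajc25 (-0.16) and the 2 Dnajc11 probe sets above bring the DNAJC probe sets without overlap to 5 of 68 (7.35%, against 5.39% of all tested probe sets). Dnajc12, a co-chaperone of aromatic amino acid hydroxylases, and Dnajc15, a J protein of the mitochondrial import motor, overlapped between genotypes. Dnajc12 stood at -0.16, 0.13 and 0.48 in p300+/- and -0.38, 0.41 and -0.13 in wild-type pools (log2 fold change 0.19 ± 0.24). Dnajc15 stood at 0.015, -0.24 and 0.55 in p300+/- and -0.035, 0.43 and -0.015 in wild-type pools (log2 fold change -0.020 ± 0.23). In both, p300+/- 3 and wild-type 2 were the highest arrays, opposite to the low probe sets of Dnajc5. Dnajc24, which serves diphthamide synthesis, also had p300+/- 3 at the top in 1451389_at, at -0.41, 0.10 and 0.84 in p300+/- and -0.28, 0.32 and -0.10 in wild-type pools (log2 fold change 0.19 ± 0.31).

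The 24 member genes without a log2 fold change of their own above were read by 53 probe sets, some of them counted above in the ER and mitochondrial sets. Means in p300+/- were higher for 28 and lower for 25. All 53 overlapped between genotypes, and the smallest unadjusted p among them was 0.21 (limma). Both follow from the choice of genes, since members without overlap and those with the smallest p of each family were named above. The log2 fold changes of these 24 genes ran from -0.23 (Dnajc1) to 0.24 (Dnajc28). In the HSP70 family these were Hspa4 and Hspa4l, relatives of HSP110, with Hspa12b, Hspa14 and Hspa1l, and 4 of their 14 probe sets were higher. Among the DNAJB proteins they were Dnajb2, Dnajb3, Dnajb4, Dnajb7 and Dnajb13, between -0.057 and 0.18. The 32 probe sets of 14 DNAJC genes split into 20 higher and 12 lower. Dnajc10, an ER J protein that reduces disulfides, had all 3 probe sets higher (0.17, 0.14 and 0.034), whereas Dnajc1, a J protein of the ER membrane, had 5 of 6 lower. The others in that family were Dnajc4, Dnajc5b, Dnajc5g, Dnajc7, Dnajc8, Dnajc9, Dnajc14, Dnajc16, Dnajc17, Dnajc21, Dnajc28 and Dnajc30.

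The genotypes did not overlap in 12 of 174 member probe sets (6.90%), where 5.39% of all tested probe sets did not. In 9 of them p300+/- was higher (3.19% of all tested probe sets) and in 3 it was lower (2.2%). The higher ones were Dnajb5 1421961_a_at, Hspa13, Dnajc18, Dnaja3, Dnajb8, Dnajc11 in 2 probe sets, Hspb7 1421290_at and Dnajc22, and the lower ones Dnajb14 1429468_at, Dnajb5 1450436_s_at and Dnajc25. Apart from Dnajb5 1421961_a_at, none of these 12 reached an unadjusted p under 0.05, and each of them carries the log2 fold change given above or, for Hspb7 1421290_at, 0.11 ± 0.11. Probe sets of 1 gene often disagreed in sign. Of 47 genes with more than 1 probe set, 17 had all of them on 1 side of 0, 13 with higher and 4 with lower means in p300+/-, and 30 had probe sets on both sides.

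Array by array, the members varied together in an order that did not follow genotype. Over the 174 members, p300+/- 3 and wild-type 2 correlated at r = 0.63, p300+/- 1 and wild-type 1 at 0.47, and p300+/- 2 and wild-type 3 at 0.35, whereas the 6 pairs of pools of 1 genotype gave -0.51 to 0.099. These are descriptions across probe sets of the same arrays, and the first 2 pairs also stand out over all tested probe sets (0.55 and 0.45). p300+/- 1 was the lowest of the 6 arrays in 24.1% of members, against 15.2% of all tested probe sets, and p300+/- 2 the highest in 25.9%, against 14.2%. A range of more than 1 over the 6 arrays, a 2-fold difference between the highest and the lowest pool, was seen in 15 members (8.62%, against 9.49% of all tested probe sets). Their lowest array was p300+/- 3 or wild-type 2 in 8 of the 15, and their highest array was 1 of these in 5. Over all tested probe sets p300+/- 3 was the lowest array in 17.2% and wild-type 2 in 18.4%. They were the highest in 21.3% and 27.1%. These shares are over probe sets of any range. Shares among all probe sets with a range of more than 1 were not computed, and these 2 arrays had the widest spreads. For all members the median range was 0.51. The 5′ minus 3′ difference of the Gapdh control probe sets, a check of RNA integrity, was -0.017, 0.049 and 0.10 in p300+/- and -0.055, -0.011 and -0.030 in wild-type pools. That of Actb was 0.12, -0.036 and 0.094 in p300+/- and -0.045, -0.20 and -0.066 in wild-type pools, lowest in wild-type 2. The means of astrocyte markers (6 of 6 genes) lay between -0.18 and 0.054 and those of microglia markers (6 of 6) between -0.16 and 0.18, and immediate early genes, which respond to handling, averaged 0.22, -0.12 and -0.024 in p300+/- and 0.14, -0.15 and -0.24 in wild-type pools. Their part in the pattern was not tested.

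**Figure D5:**
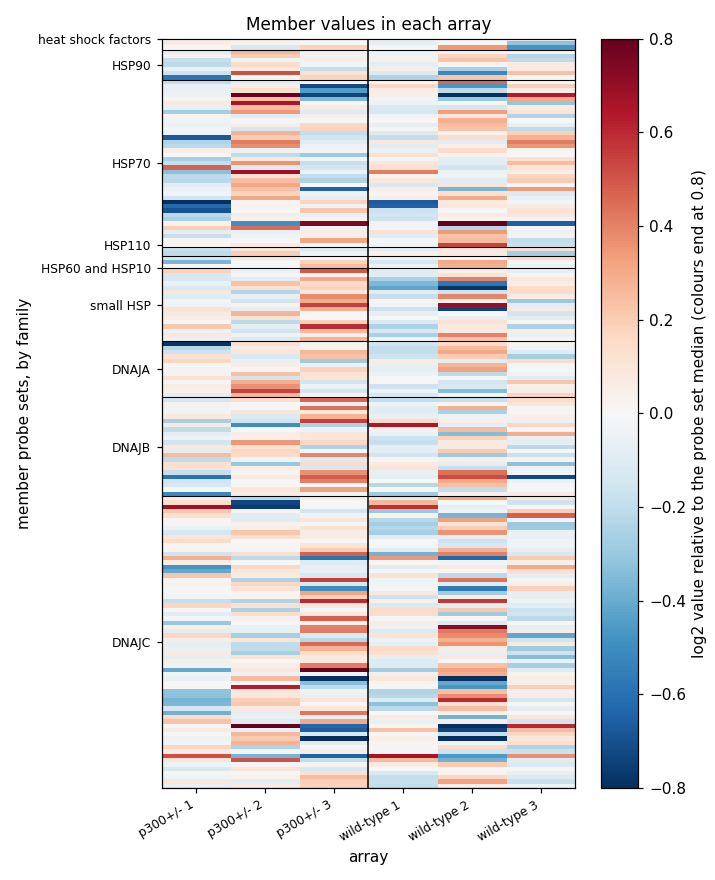
Log2 value relative to the probe set median (colour) of the 174 member probe sets (rows, grouped by family) in each array (columns, p300+/- left and wild-type right of the vertical line). Red and blue stripes recur in p300+/- 3 and wild-type 2 and, in part of HSP70, blue ones in p300+/- 1 and wild-type 1, and 12 of 174 rows separate the genotypes without overlap.

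None of the partners of these chaperones passed the test either. The list held 56 genes, among them BAG nucleotide exchange factors, HSP90 co-chaperones, the cytosolic chaperonin and ER folding enzymes, and 53 of them were measured by 111 probe sets. At an adjusted p under 0.05 there were 0 higher and 0 lower (limma), and at an unadjusted p under 0.05 there was 1, or 0.901%, against 1.22% of all tested probe sets. Means were higher for 67 and lower for 44 (60.4% higher, against 51.7% of all tested probe sets), with a median log2 fold change of 0.025. Cdc37l1, a relative of the HSP90 kinase adaptor CDC37, gave both the smallest p on the higher side and the smallest on the lower side. Cdc37l1 1430205_a_at stood at 0.28, 0.52 and 0.040 in p300+/- pools 1 to 3, against -0.040, -0.41 and -0.16 in wild-type pools 1 to 3 (log2 fold change 0.48 ± 0.16), without overlap. Cdc37l1 1455329_at stood at -0.16, -0.022 and 0.022 in p300+/- and -0.060, 0.42 and 0.19 in wild-type pools (log2 fold change -0.24 ± 0.15). The gene's 4 other probe sets lay between -0.072 and -0.016. Cct4, a subunit of the chaperonin that folds actin and tubulin, followed on the higher side in 1415868_at, at 0, 0.16 and 0.079 in p300+/- and -0.37, -0.26 and 0 in wild-type pools (log2 fold change 0.29 ± 0.13). All other Cct4 probe sets had lower means in p300+/-, with log2 fold changes between -0.14 and -0.027. Cct3, another subunit, followed on the lower side in 1439679_at, at 0.034, -0.17 and -0.034 in p300+/- and 0.13, 0.18 and -0.092 in wild-type pools (log2 fold change -0.13 ± 0.13). The other Cct3 probe sets lay on both sides of 0, between -0.029 and 0.24.

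The partners of ER chaperones did not all repeat the low values of p300+/- 1 and wild-type 1. Pdia6, a disulfide isomerase of the ER, stood at -0.19, 0.11 and 0.44 in p300+/- pools 1 to 3, against -0.28, 0.39 and -0.11 in wild-type pools 1 to 3 in 1423648_at. Pdia4, another, stood at -0.44, -0.24 and 0.60 in p300+/- and -0.50, 0.27 and 0.24 in wild-type pools in 1416497_at. Both of these probe sets had these 2 arrays as the lowest of their genotypes, but the other probe set of each gene did not. In Pdia6 1430983_at wild-type 1 was the lowest wild-type pool (-0.24) and p300+/- 1 the highest p300+/- pool (0.31). In Pdia4 1450620_at p300+/- 1 was the lowest p300+/- pool (-0.0023) and wild-type 1 the highest wild-type pool (0.093). Hyou1, the ER relative of HSP110, was between -0.049 and 0.19 over the 6 arrays in 1423291_s_at, and Calr, calreticulin, was lowest in wild-type 2 and not in wild-type 1, at -0.10, 0.27 and 0.10 in p300+/- and -0.30, -0.38 and 0.42 in wild-type pools in 1417606_a_at. The chaperonin CCT was read by 26 probe sets of 9 genes, with a median log2 fold change of -0.020. Wild-type 2 was the highest array in 16 of them (61.5%, against 27.1% of all tested probe sets). The lowest was p300+/- 1 in 10 (38.5%, against 15.2%) and wild-type 1 in 11 (42.3%, against 14.8%).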

How the data were processed

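Hippocampal RNA pools of 3 p300+/- and 3 wild-type groups of animals were hybridised to 1 Affymetrix Mouse Genome 430 2.0 array each. Per the labels' protocols, the authors processed and normalised the arrays in GeneSpring GX. The deposited log2 values are centred on each probe set's median over the 6 arrays, as the values show. Their log base is taken as 2, and for the summarization of probes, the normalization between arrays and the GeneSpring version nothing is stated. A coarse class of signal (8 to 16, 4 to 8 or 2 to 4 on the log2 scale before centring) could be read from the rounding steps of the deposited values for 98.2% of probe sets, and an absolute level could not.

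From these values 64 control probe sets were left out and 45037 were tested two-sided, p300+/- minus wild-type, by lmFit and eBayes of the limma package (version 3.58.1, under R 4.3.3). P-values were adjusted by Benjamini-Hochberg over all of them with a threshold of 0.05. Symbols came from the platform annotation, updated through gene identifiers to RefSeq (GRCm38.p6), where all 174 member probe sets matched. The labels do not say that the pools of a genotype came from separate litters or days, so p-values measure the spread between these pools. The members, the chaperone and marker lists and the compartment sets were chosen with earlier results of these data known. Named with every array were all probe sets of the main stress-inducible and abundant chaperones (Hsf2, Hspa1a, Hspa1b, Hspa5, Hspa8, Hsph1, Hsp90aa1, Hspb1, Cryab, Dnaja1 and Dnajb1). To these were added, per family, the 3 probe sets with the smallest p and the one with the widest range, members at an unadjusted p under 0.05 without overlap, and for partners the 2 smallest p in each direction. Probe sets named beyond that rule were chosen after their values were seen. Alternatives were quantile normalization, array centring, moderation within classes of signal, array weights, a replicate block, leaving out arrays, and filters on probe sets. Moderation by mean level could not be used on centred values, so classes of signal took its place there and in the filter on dim probe sets. The fit was tested on simulated data with independent errors and 200 changed probe sets per fold. It recovered 79 of them at 2-fold, 177 at 4-fold and 193 at 8-fold, with 3, 14 and 5 false calls. Plots were drawn with matplotlib 3.10.9.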

Additional observations from a re-analysis of the deposited data

How the results depend on the processing

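No member and no tested probe set passed the adjusted threshold under any alternative that was run, and none of 51 named member probe sets changed its side of the threshold. The count of members at an unadjusted p under 0.05 (limma) was 1 in the fit reported. It was 2 after quantile normalization, 6 with array weights and 3 with the replicate block. Among the members left when probe sets that can bind several transcripts were left out, it was 0. With 1 array left out it was 1 to 5. These counts were 3 without p300+/- 2, 2 without p300+/- 1, 2 without p300+/- 3, 5 without wild-type 2 and 4 without wild-type 3. The share over all tested probe sets moved as well. With array weights it was 3.624%, against 3.448% of members. The share was larger for members with the replicate block (1.724% against 1.341%) and without p300+/- 2 (1.724% against 1.552%). The same held without wild-type 2 (2.874% against 2.556%) and without wild-type 3 (2.299% against 1.448%). In the other fits of this list the members had the smaller share. The members without overlap numbered 19 to 35 with 1 array left out, where fewer arrays by construction leave more probe sets apart, and 35 is the count without wild-type 2. Leaving out p300+/- 3 and wild-type 2 together was an alternative chosen after seeing the data. There 2 members were under 0.05 (1.15%, against 2.39% of all tested probe sets, limma) and 50 did not overlap, with fewer arrays still. For these counts without overlap the share over all tested probe sets was not computed. They therefore cannot be read as a result about the members. The median log2 fold change of the members ran from -0.018 to 0.065 with 1 array left out, and 0.065 is the value without wild-type 2. Same-numbered pools of the genotypes deviated together at r = 0.61, -0.23 and -0.47 for numbers 1 to 3, and 2 of 6 arrays correlated best with their own number, so the numbers were not taken to pair the pools. The sign of 26 named log2 fold changes turned when 1 array was left out, with these ranges: Hsf2 1444436_at from -0.15 to 0.26, Hsp90aa1 1426645_at from -0.0065 to 0.17, Hsp90aa1 1433251_at from -0.0090 to 0.20, Hsp90aa1 1441827_x_at from -0.19 to 0.026, Hsp90aa1 1438902_a_at from -0.13 to 0.050, Hsp90aa1 1437497_a_at from -0.12 to 0.056, Hspa12a 1447222_at from -0.28 to 0.63, Hspa1a 1452388_at from -0.15 to 0.092, Hspa1b 1427126_at from -0.30 to 0.034, Hspa1b 1427127_x_at from -0.23 to 0.065, Hspa5 1447824_x_at from -0.21 to 0.033, Hspa5 1427464_s_at from -0.29 to 0.30, Hspa5 1416064_a_at from -0.28 to 0.17, Hspa8 1420622_a_at from -0.33 to 0.13, Hspa8 1455789_x_at from -0.15 to 0.00086, Hspa8 1420623_x_at from -0.070 to 0.080, Hspa8 1431182_at from -0.32 to 0.43, Hsph1 1423566_a_at from -0.075 to 0.13, Hspe1 1450668_s_at from -0.25 to 0.019, Hspe1 1422579_at from -0.058 to 0.14, Cryab 1434369_a_at from -0.22 to 0.11, Dnaja1 1459835_s_at from -0.42 to 0.039, Dnaja1 1460179_at from -0.16 to 0.065, Dnaja1 1416288_at from -0.038 to 0.21, Dnajb6 1429776_a_at from -0.24 to 0.39 and Dnajc5 1460498_a_at from -0.24 to 0.72. Under array weights the sign turned to 0.089 for Hspa1a 1452388_at, 0.020 for Hspa1b 1427127_x_at, 0.076 for Hspa5 1427464_s_at, 0.17 for Hspa5 1416064_a_at, 0.00029 for Hspa8 1455789_x_at, 0.020 for Hspa8 1420623_x_at, -0.00060 for Hsph1 1423566_a_at, 0.10 for Cryab 1434369_a_at, 0.052 for Dnaja1 1460179_at and 0.0021 for Dnajb1 1416755_at. After quantile normalization it turned to 0.019 for Hspa1a 1452388_at and 0.048 for Hspa5 1416064_a_at, and without p300+/- 3 and wild-type 2 to 0.087 for Hspa1a 1452388_at, 0.084 for Hspa5 1447824_x_at and 0.029 for Dnaja1 1460179_at. The cause of these turns was not tested. With 3 pools of a genotype an exact permutation test of 1 probe set cannot go below 0.1, and the deposited values hold no background signal, so detection could not be judged for any member.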
